A study of Mus musculus with 8 samples.

Results

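The Polycomb and Trithorax complex genes were followed in cultured muscle satellite cells made to overexpress Hoxa9. The 37 members were chosen by name. They include the subunits and partners of Polycomb repressive complexes 2 and 1 (PRC2 and PRC1) and the H3K27 demethylases. The rest are the shared core of the Mll complexes and, beside it, Men1, grouped here as the Mll core. All 37 were on the array, with 64 probes among the 55681 that were not controls, and all 37 were among the 27109 genes tested. Both groups were satellite cells sorted by FACS from the hindlimb skeletal muscle of young adult C57BL/6J mice aged 3 to 4 months, cultured overnight and transduced with lentivirus. In the Hoxa9-eGFP group (4 arrays) the integrated virus carried Hoxa9 with eGFP, and in the eGFP group (4 arrays) it carried eGFP alone. In both, eGFP-positive cells were sorted 5 days after transduction and 0.1 µg of their RNA was labelled with Cy3 for Agilent 8x60K arrays. The labels do not name the promoter of the virus, nor whether replicates came from separate animals, and the p-values therefore cover only the scatter among these arrays, which may be technical. The comparison asks how forced Hoxa9 changed the transcripts of the machinery that writes, reads and erases the marks controlling Hox loci.

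Polycomb proteins keep developmental genes silent. PRC2 methylates histone H3 at lysine 27 through Ezh2 or its relative Ezh1, which need Eed and Suz12 as partners. PRC1 binds that mark through its chromobox (Cbx) proteins and ubiquitinates histone H2A through Ring1 or Rnf2. Kdm6a and Kdm6b remove methyl groups from lysine 27, and the Mll complexes, named for the mammalian homologues of Drosophila Trithorax, methylate lysine 4 with the help of Wdr5, Ash2l, Rbbp5 and Dpy30. In muscle, Ezh2 is known as the enzyme of dividing satellite cells and myoblasts, and Ezh1 as the form that prevails in cells that have left the cell cycle.

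Promoter sequence from RefSeq (GRCm38.p6) is shown for the 3 core PRC2 genes that passed the test below, since Ezh1 moved against Ezh2 and Suz12. Each window runs from 250 bases before to 50 bases after the annotated start. Capitals mark a match on either strand to any of 4 E2F words, TTTCCCGC, TTTGGCGC, TTTCGCGC and TTTGCCGC, E2F being the factor family that acts on cell-cycle genes. The Ezh1 window is chr11:101226414-101226713 (minus strand), the Ezh2 window chr6:47594981-47595280 (minus strand) and the Suz12 window chr11:79992856-79993155 (plus strand).
Ezh1: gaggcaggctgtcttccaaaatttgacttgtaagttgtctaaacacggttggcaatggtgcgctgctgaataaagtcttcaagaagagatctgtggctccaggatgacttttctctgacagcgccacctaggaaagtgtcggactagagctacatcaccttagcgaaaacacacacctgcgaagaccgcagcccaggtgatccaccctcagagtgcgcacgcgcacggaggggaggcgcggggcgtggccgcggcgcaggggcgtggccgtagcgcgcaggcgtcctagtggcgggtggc
Ezh2: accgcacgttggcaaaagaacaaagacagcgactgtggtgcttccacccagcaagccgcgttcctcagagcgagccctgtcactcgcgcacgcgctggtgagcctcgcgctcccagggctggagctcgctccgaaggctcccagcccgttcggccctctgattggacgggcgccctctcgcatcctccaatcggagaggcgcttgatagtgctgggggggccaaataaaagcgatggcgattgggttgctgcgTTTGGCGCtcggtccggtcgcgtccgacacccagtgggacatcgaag
Suz12: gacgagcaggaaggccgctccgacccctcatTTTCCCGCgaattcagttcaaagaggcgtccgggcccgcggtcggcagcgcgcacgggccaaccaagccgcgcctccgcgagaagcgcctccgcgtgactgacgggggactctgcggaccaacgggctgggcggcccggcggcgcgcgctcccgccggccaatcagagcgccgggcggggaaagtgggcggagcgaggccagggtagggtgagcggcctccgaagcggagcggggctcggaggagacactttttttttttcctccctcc
The Ezh2 match begins at base 254 of its window and the Suz12 match at base 32, and the Ezh1 window holds none of these words. Windows were found for 31 of the 37 members, several for a gene with several starts, and a gene was counted where any of its windows held a word. An E2F word stood in 3 of the 31 genes (9.68%), Ezh2, Suz12 and Phf19, against 2.6% of all 27025 genes with a window. The CHR word TTTGAA, another element of cell-cycle promoters, stood in 7 (22.6%) against 20.2%, and CCAAT in 15 (48.4%) against 41.1%. The words TGATTTAT and TGATTTAC, which Hox proteins bind together with Pbx, stood in windows of 0 of the 31 genes against 1.8% of all genes. A match is a run of letters and does not show binding.

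Levels below are log2 signals relative to the array's 75th percentile, and differences are Hoxa9-eGFP minus eGFP on that log2 scale, with the SE of the limma fit. A member with several probes is described by its brightest. The virus was seen on its own gene: the brighter Hoxa9 probe stood at 5.30, 5.44, 5.48 and 5.81 on the 4 Hoxa9-eGFP arrays, and at -0.98, -0.71, -0.14 and -0.04 on the eGFP arrays, a difference of 5.98 (limma, adjusted p = 1.709e-05). The other Hoxa9 probe went the other way and fell by 1.74 (limma over all probes, adjusted p = 0.00027). All 37 member probes used were well above background on all 8 arrays. Of the markers of the labelled cell type, Pax7 and Myod1, transcription factors of satellite cells and myoblasts, were well above background on all 8 arrays, the blood marker Ptprc on at most 2, and Pecam1 (endothelium) and Pdgfra (fibroblasts) on all 8.

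Among the members, 3 were higher in Hoxa9-eGFP cells and 4 lower at an adjusted p under 0.05 over all genes tested. The higher genes were Ezh1, Jarid2 and Kdm6b, and the lower genes Ezh2, Cbx2, Suz12 and Men1. Called members made up 18.9% of the 37, against 15.2% of all genes tested. The higher calls were 8.11% of the members against 7.83% of all genes, close to the background, and the lower calls 10.8% against 7.42%. The median difference of the members was -0.22, against -0.07 for all genes. By complex, PRC2 had 2 higher and 2 lower of 11, and PRC1 0 higher and 1 lower of 19. The demethylases had 1 higher of 2, and the Mll core 1 lower of 5, which was Men1. Without any adjustment, 14 of the 37 members (37.8%) had p under 0.05, against 27.5% of all genes tested.

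**Figure D1:**
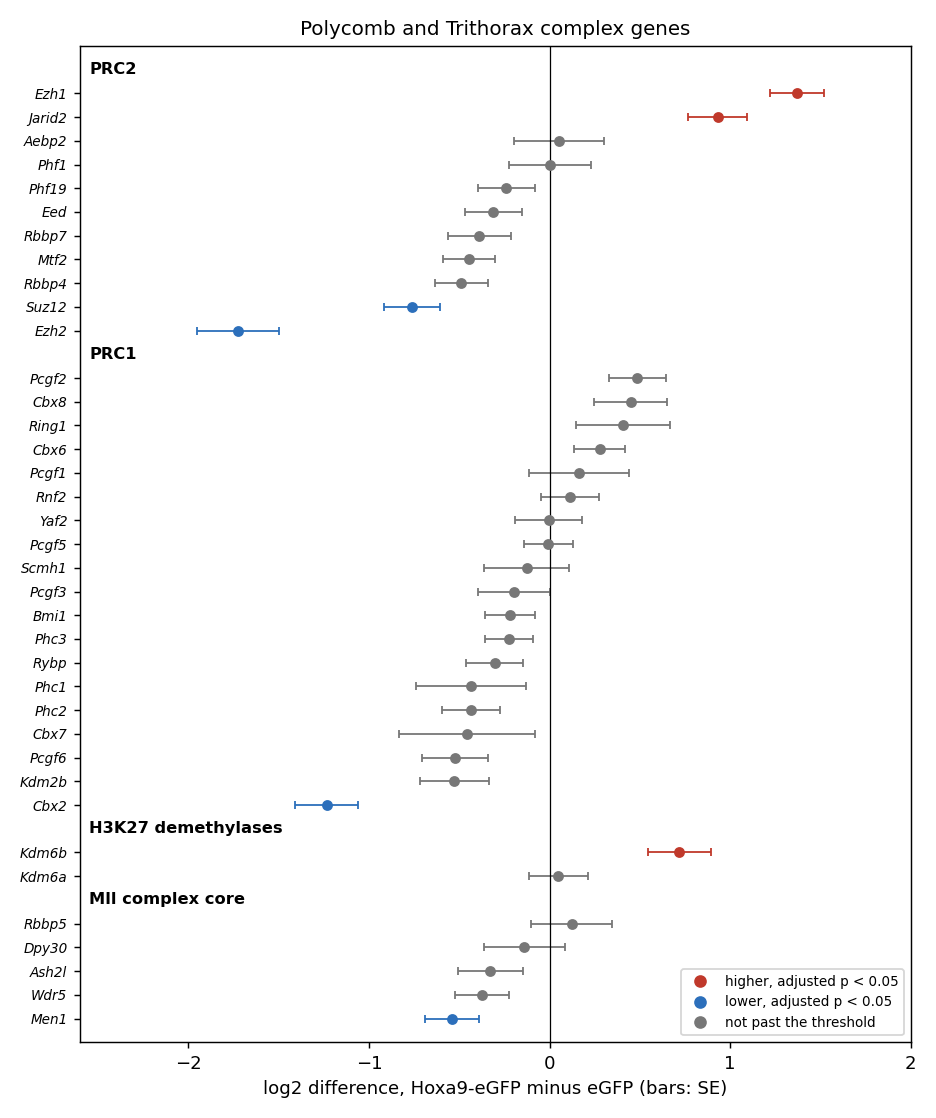
The log2 difference of each of the 37 members, Hoxa9-eGFP minus eGFP, on the horizontal axis, with bars for the SE (4 arrays a group), grouped by complex and ordered by difference. Red points are higher and blue points lower at an adjusted p under 0.05; Ezh1 at 1.37 and Ezh2 at -1.73 are the ends of the range.

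The catalytic subunits of PRC2 moved in opposite directions. Ezh1, the methyltransferase prevailing in resting cells, stood at 4.07, 3.97, 3.95 and 4.08 on the Hoxa9-eGFP arrays, and at 2.80, 2.88, 2.45 and 2.46 on the eGFP arrays. The groups did not overlap. The level was 2.58-fold higher, a difference of 1.37 ± 0.15 (SE, n = 4 each; limma, adjusted p = 0.000679).
All 4 Ezh1 probes rose, by 1.37, 1.17, 1.16 and 1.46, with adjusted p of 0.000912, 0.0188, 0.0160 and 0.0111 when every probe was its own row in limma. In that order, their mean levels were 4.02, 1.74, -2.743 and -2.995 on the Hoxa9-eGFP arrays, and 2.65, 0.58, -3.905 and -4.455 on the eGFP arrays. The last 2 were thus far dimmer than the first. The 4 probes do not overlap, but the first 2 lie close together. Their places are chr11:101052430-101052489, chr11:101052680-101052739, chr11:101058722-101058781 and chr11:101054534-101054593 of mm9 (minus strand). No exon or UTR is given for them. The 30 bases at the 5′ end of each 60-base probe follow in the same order, with that of the lone Ezh2 probe (chr6:47480307-47480366, minus strand), to show the separate stretches that were read.
Ezh1 probe a: ttcttgcactttaaagtcctgtggcttgtg
Ezh1 probe b: taaaacatgtcggttctagactgagctcag
Ezh1 probe c: ctgaagttcttttagaactctttcttttcc
Ezh1 probe d: gcattgggatctttgccaagagagcaattc
Ezh2 probe: gctgcaaagtgttttgtaccagtgagtttt

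Ezh2, the methyltransferase of dividing cells, stood at 1.41, 0.83, 1.14 and 0.82 on the Hoxa9-eGFP arrays, and at 3.17, 2.92, 2.68 and 2.33 on the eGFP arrays. Every Hoxa9-eGFP array was below every eGFP array, and the gap between groups was wider than the spread within either. The level was 3.31-fold lower, a difference of -1.73 ± 0.23 (SE, n = 4 each; limma, adjusted p = 0.00154). Within the 3 slides the difference was -2.23, -1.56 and -1.18, and for Ezh1 it was 1.24, 1.57 and 1.49, the same direction on each slide. These are levels of different probes and cannot be ranked against each other.

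Suz12, the partner that PRC2 needs to be stable, also fell. It stood at 1.33, 1.57, 1.14 and 1.03 on the Hoxa9-eGFP arrays, and at 2.14, 2.05, 1.96 and 1.96 on the eGFP arrays, a difference of -0.76 ± 0.16 (SE, n = 4 each; limma, adjusted p = 0.0127). The groups did not overlap. Scaling to the array median in place of the 75th percentile took the adjusted p to 0.0578, at a difference of -0.79. Eed, the subunit that reads the mark, was 3.44, 3.85, 3.35 and 3.36 on the Hoxa9-eGFP arrays, and 3.73, 3.83, 3.98 and 3.70 on the eGFP arrays. Its groups overlapped, and the difference of -0.31 did not pass (adjusted p = 0.256).
The histone-binding subunits Rbbp4 and Rbbp7, which other chromatin complexes share, had differences of -0.49 and -0.39 and did not pass (adjusted p = 0.0607 and 0.189), although neither gene's groups overlapped. The dimmer Rbbp4 probe fell by 1.09 (limma over all probes, adjusted p = 0.00416). The Rbbp4 call was gained in 7 of 20 alternatives, of which 5 used the brighter probe alone, at adjusted p of 0.0207 to 0.0482.

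Of the accessory subunits that steer PRC2 to chromatin, Jarid2 alone passed. It stood at 1.08, 1.05, 0.78 and 1.10 on the Hoxa9-eGFP arrays, and at 0.05, 0.40, -0.11 and -0.06 on the eGFP arrays. The groups did not overlap, and the level was 1.91-fold higher, a difference of 0.93 ± 0.16 (SE, n = 4 each; limma, adjusted p = 0.006075). Mtf2 had a difference of -0.45 with groups that did not overlap and did not pass (adjusted p = 0.0757). Phf19, Phf1 and Aebp2 had differences of -0.24, 0.00198 and 0.05, none past the threshold. The eGFP arrays of Aebp2 were far apart, from 0.92 to 2.01, while its Hoxa9-eGFP arrays lay from 1.56 to 1.65.

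**Figure D2:**
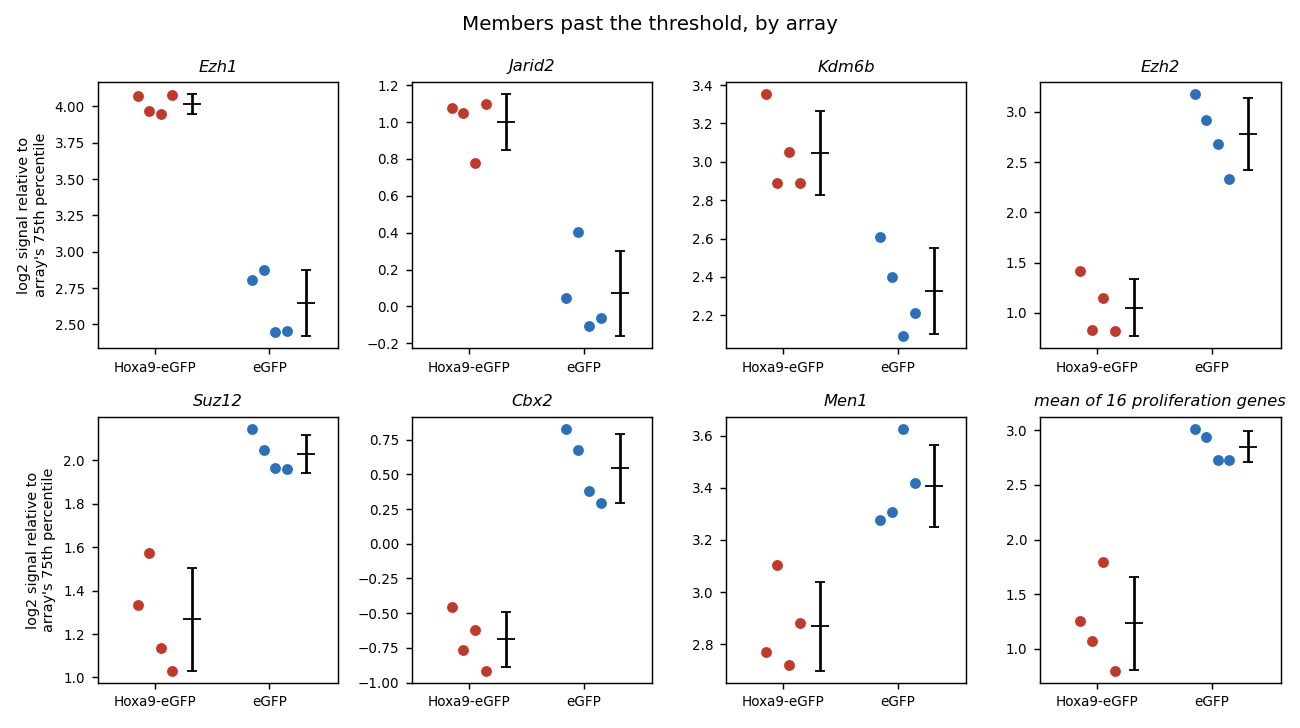
Log2 signal relative to the array's 75th percentile for each array (points; Hoxa9-eGFP left, eGFP right), with mean and SD in black, for the 7 members past the threshold and, last, the mean of 16 proliferation genes. The groups do not overlap in any of these panels; the vertical axes differ between panels and do not start at 0.

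Markers of dividing cells moved alongside the lower PRC2 genes. Of 16 proliferation genes, 14 were lower and 0 higher, with a median difference of -1.78. Their mean level was 1.26, 1.08, 1.80 and 0.80 on the Hoxa9-eGFP arrays, and 3.01, 2.94, 2.72 and 2.73 on the eGFP arrays. Mki67 and Top2a, both marks of cycling cells, fell by 1.996 and 1.87 (limma, adjusted p = 0.000677 and 0.00155). Their part in the falls of Ezh2, Suz12 and Cbx2 was not tested. In such bulk samples, fewer cells of a type and less RNA per cell cannot be told apart. Of the 9 myogenic genes 6 were lower, at a mean of 2.78 to 3.101 on the Hoxa9-eGFP arrays and 3.88 to 4.05 on the eGFP arrays. Pax7 fell by 1.30 (limma, adjusted p = 0.00401), and Myod1 was at -0.23, short of the threshold (adjusted p = 0.479).

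The chromobox proteins give PRC1 its hold on methylated H3K27, and of the 4 measured Cbx2 fell. It stood at -0.45, -0.76, -0.62 and -0.92 on the Hoxa9-eGFP arrays, and at 0.83, 0.68, 0.38 and 0.30 on the eGFP arrays, at chr11:118892363-118892422 of mm9 (plus strand). Each Hoxa9-eGFP array was below each eGFP array. The level was 2.35-fold lower, a difference of -1.23 ± 0.18 (SE, n = 4 each; limma, adjusted p = 0.00228). Cbx8 and Cbx6 had differences of 0.45 and 0.28 and did not pass (adjusted p = 0.194 and 0.25), though both were higher in the Hoxa9-eGFP array of all 4 same-numbered pairs.

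Cbx7 gave opposite readings by probe. The brighter probe, which the files tie to an Ensembl transcript, had a difference of -0.46 ± 0.38 (SE, n = 4 each; limma, adjusted p = 0.471). The dimmer probe, tied to the RefSeq transcript, rose by 1.36 ± 0.21 (limma over all probes, adjusted p = 0.00426), and was well above background on 4 Hoxa9-eGFP arrays and 2 eGFP arrays. Their 30-base 5′ ends show that they read different parts of the locus, at chr15:79748605-79748664 and chr15:79746240-79746299 of mm9 (minus strand).
Cbx7 brighter probe: tatttttattttttaaaaaagtagaagcac
Cbx7 dimmer probe: ttagatgatttatctgatagatgaggcaaa
No direction is given for Cbx7 as a gene.

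**Figure D3:**
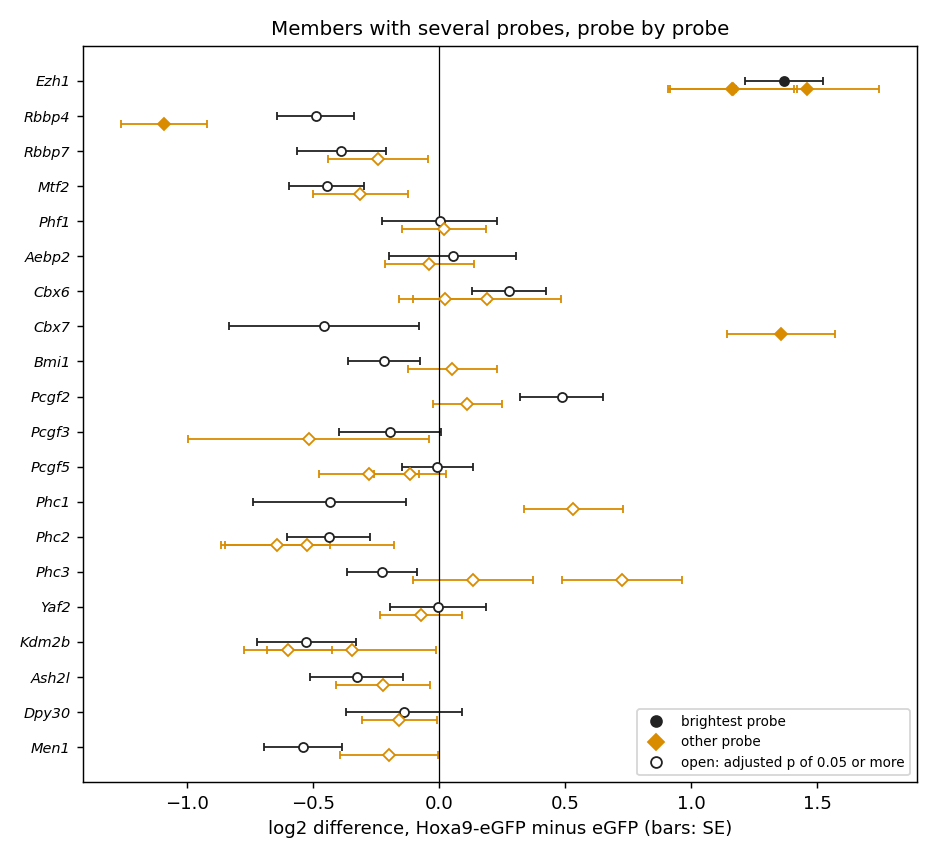
The log2 difference, Hoxa9-eGFP minus eGFP, of every probe of the 20 members that have several, with bars for the SE; black circles are the brightest probe used for the gene, orange diamonds the others, and filled marks have an adjusted p under 0.05. All Ezh1 probes lie right of 0, while the Cbx7 probes lie on opposite sides.

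Probes of 15 of the 20 members with several kept probes shared 1 sign. The exceptions were Cbx7, Phc1, Phc3, Bmi1 and Aebp2. Apart from Cbx7, no probe of those 4 passed the threshold.

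The remaining PRC1 genes were called in neither direction. Ring1, the E3 ligase that ubiquitinates H2A, was -0.38, -0.63, -0.67 and -0.69 on the Hoxa9-eGFP arrays, and -0.33, -0.81, -1.48 and -1.38 on the eGFP arrays, a difference of 0.41 (adjusted p = 0.362). Rnf2, its relative with the same activity, was 1.90, 2.24, 1.92 and 1.62 on the Hoxa9-eGFP arrays, and 1.89, 1.84, 1.70 and 1.80 on the eGFP arrays, a difference of 0.11 (adjusted p = 0.666). For both genes the groups overlapped. Bmi1, the Pcgf protein known for keeping Cdkn2a silent, was 2.29, 2.35, 2.05 and 1.996 on the Hoxa9-eGFP arrays, and 2.48, 2.41, 2.36 and 2.30 on the eGFP arrays. Its groups overlapped, and the difference was -0.22 (adjusted p = 0.355).
Cdkn2a itself, the cell-cycle inhibitor locus that Polycomb proteins repress in many cells, stood at 3.92, 3.90, 3.38 and 3.96 on the Hoxa9-eGFP arrays, and at 4.35, 4.24, 4.25 and 4.74 on the eGFP arrays. The difference of -0.60 did not pass (adjusted p = 0.0713). Its other probe fell by 0.87 (limma over all probes, adjusted p = 0.045).

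Among the other Pcgf proteins, which define the PRC1 variants, Pcgf2 had a difference of 0.49 with groups that did not overlap (adjusted p = 0.0809) and Pcgf6 one of -0.53 with groups that just overlapped (adjusted p = 0.0976). Pcgf1, Pcgf3 and Pcgf5 were at 0.16, -0.20 and -0.00659. The polyhomeotic proteins Phc1, Phc2 and Phc3, which compact chromatin by polymerising, were at -0.43, -0.44 and -0.23, and their partner Scmh1 at -0.13. Of the variant-PRC1 proteins, Kdm2b, which binds unmethylated CpG islands, had a difference of -0.53 with groups that did not overlap (adjusted p = 0.114, and 0.0444 with the replicate number as a block). Rybp and Yaf2 were at -0.30 and -0.00552. None of these passed the threshold in the fit reported here, which does not show that the groups were equal.

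Ring1 and Phc1 were uneven among the eGFP arrays. Replicates 1 and 2 of eGFP shared slide 1 with Hoxa9-eGFP replicate 4, and the other arrays lay on slides 2 and 3. The Ring1 difference was -0.12 on slide 1, 0.97 on slide 2 and 0.71 on slide 3, and that of Phc1 was -1.13, 0.14 and 0.12. The fibroblast marker list also divided the arrays by number, with a mean of -1.05, -0.86, 1.27 and 1.08 on the Hoxa9-eGFP arrays and -1.15, -1.26, 0.25 and -0.09 on the eGFP arrays, of 6 genes with 1 higher. Its part in these differences was not tested.

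Of the H3K27 demethylases, Kdm6b rose. This inducible enzyme was at 3.35, 2.89, 3.05 and 2.89 on the Hoxa9-eGFP arrays, and 2.61, 2.40, 2.09 and 2.21 on the eGFP arrays. The groups did not overlap, and the level was 1.65-fold higher, a difference of 0.72 ± 0.17 (SE, n = 4 each; limma, adjusted p = 0.0263). The direction held on each slide, at 0.39, 1.03 and 0.84, but with the slide as a block the adjusted p was 0.0718, and with median scaling 0.116. Without Hoxa9-eGFP replicate 1 or 3, or eGFP replicate 2, 3 or 4, it lay between 0.0637 and 0.0714. Kdm6a, its X-linked relative, was 0.20, -0.23, -0.42 and -0.07 on the Hoxa9-eGFP arrays, and -0.31, -0.10, -0.11 and -0.19 on the eGFP arrays, a difference of 0.05 ± 0.16 (SE, n = 4 each; limma, adjusted p = 0.87). A difference between the 2 genes was not tested.

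In the Mll core, Men1, the menin scaffold that carries Mll to Hox targets, was 2.77, 3.103, 2.72 and 2.88 on the Hoxa9-eGFP arrays, and 3.28, 3.31, 3.62 and 3.42 on the eGFP arrays. The groups did not overlap, and it fell by 0.54 ± 0.15 (SE, n = 4 each; limma, adjusted p = 0.0452). This call was lost in 14 of 20 alternatives, among them the replicate block (adjusted p = 0.0854), the slide block (0.0703) and 7 of the 8 fits that left out an array, of which only the fit without Hoxa9-eGFP replicate 2 kept it. The other Men1 probe was at -0.20.
Wdr5, which presents the H3 tail to the enzyme, was 2.81, 3.1, 2.82 and 2.69 on the Hoxa9-eGFP arrays, and 3.31, 3.34, 3.27 and 3.00 on the eGFP arrays. Its highest Hoxa9-eGFP array passed its lowest eGFP array, and the difference was -0.38 (adjusted p = 0.146). Ash2l was 3.68, 3.50, 3.50 and 3.11 on the Hoxa9-eGFP arrays, and 4.07, 3.84, 3.65 and 3.53 on the eGFP arrays, a difference of -0.33 (adjusted p = 0.294). Rbbp5 was -0.65, -0.47, -0.98 and -1.18 on the Hoxa9-eGFP arrays, and -0.65, -0.70, -1.09 and -1.32 on the eGFP arrays, a difference of 0.12 (adjusted p = 0.748). Dpy30 was 2.38, 2.39, 2.13 and 1.98 on the Hoxa9-eGFP arrays, and 2.77, 2.66, 1.99 and 2.004 on the eGFP arrays, a difference of -0.14 (adjusted p = 0.715). These 3, like Wdr5, form the unit that stimulates the methyltransferase, and their groups overlapped.

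Same-numbered arrays gave a view of the members array by array. In all 4 pairs 7 of the 37 members were higher in the Hoxa9-eGFP array, 18.9% against 19.3% of all genes, and 15 were lower, 40.5% against 23.9%. By group, 4 members had no overlap and were higher in Hoxa9-eGFP, 10.8% against 11.1% of all genes, and 8 had none and were lower, 21.6% against 12.5%. Ezh2 was lowest relative to its partner in pair 2, at -2.09, and Ezh1 highest in pair 4, at 1.62.

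**Figure D4:**
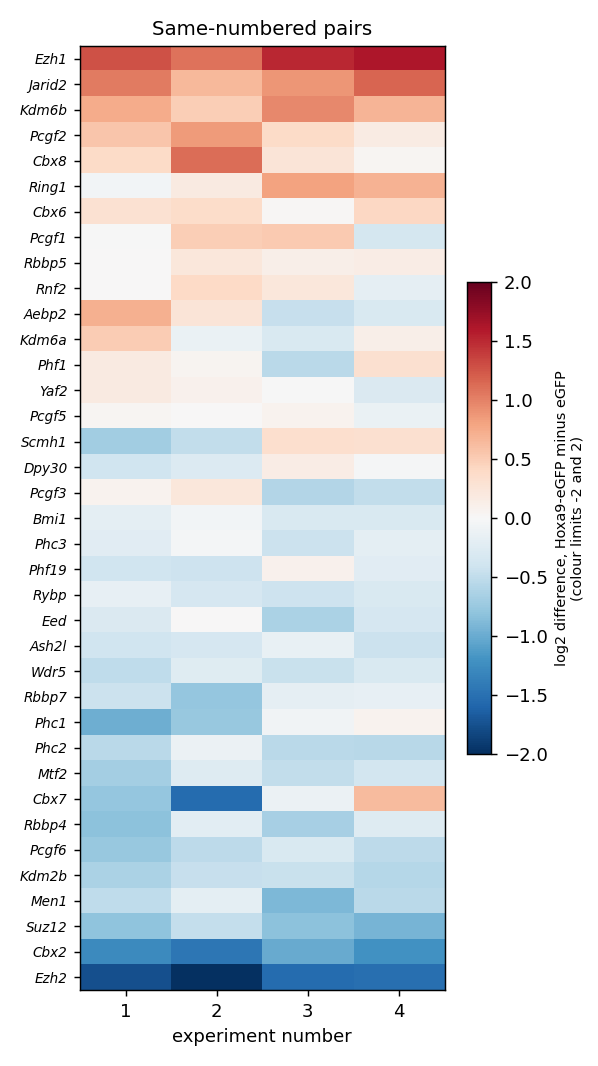
Colour shows the log2 difference, Hoxa9-eGFP minus eGFP, of each member (rows, ordered by the mean difference) in each same-numbered pair of arrays (columns); the colour scale ends at -2 and 2. Ezh1, Jarid2 and Kdm6b are red in all 4 columns and Ezh2, Cbx2, Suz12 and Men1 blue in all 4.

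Beyond the members, 72 of 74 other Polycomb and Trithorax genes were measured, and 4 were higher (5.56% against 7.83% of all genes) and 2 lower (2.78% against 7.42%), both shares below the background, with a median difference of -0.06 against -0.07 for all genes. Of 26 other Polycomb genes, 3 rose, among them Scml4 by 1.36 and Bcor, a subunit of a PRC1 variant, by 0.68 (limma, adjusted p = 0.00328 and 0.0375). Of 25 SWI/SNF genes, which code for the nucleosome remodeller that opposes Polycomb, the ATPase Smarca2 rose by 1.15, and the subunits Bcl7a and Smarce1 fell by 0.83 and 0.60 (limma, adjusted p = 0.0058, 0.00786 and 0.015). The count of lower genes was 1 without eGFP replicate 2. Of the 16 genes of H3K4 methylation measured, including the Mll enzymes, 0 passed in limma, and 4 had an unadjusted p under 0.05. Of the 5 H3K4 demethylases 0 passed in limma, and 0 had an unadjusted p under 0.05.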

How the data were processed

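RNA of 8 samples, 4 of each group, was measured on single-colour arrays, 62976 spots each. Intensities were read with Agilent Feature Extraction 10.7.3.1, per the submitters' processing notes, and, per the file headers, the deposited processed signal is the spot intensity after the scanner software's background correction. The deposited value table is a score whose scale the authors do not state. It lacks decimal points in 86.1 to 87.3% of cells. With these restored, and each array's median gap subtracted, at least 99.9982% of values lay within 0.05 log2 of the log2 signal. Such a check allows any constant per array, so it cannot tell the 75th percentile from another scaling. The 75th percentile was used here, and no fold or direction in the report comes from the table.

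The log2 intensity minus each array's 75th percentile (514 to 779) was averaged over spots of a probe, control and non-uniform or outlier spots being left out (180 probes lost). A probe was kept where it stood well above background on 4 or more of the 8 arrays (40771 probes), and a gene is its brightest kept probe (27109). The share of spots well above background was 69.6 to 77.5%, no spot was saturated, and precision is set by having 4 arrays a group. The comparison used limma 3.58.1 (R 4.3.3) and Benjamini-Hochberg adjustment over all genes at 0.05; the fit was tested on simulated data. The arrays sit on 3 slides. Deviations from the group means correlated at 0.129 to 0.228 in the 4 same-numbered pairs (the experiment number in the sample titles), all over 0.1, as did 2 of 12 other pairs, and the number was used as a block in an alternative. Probe coordinates are mm9 per the file headers. Sequences of promoters are RefSeq's. Alternatives were quantile, median and normexp scaling, the value table, 2 filters, 2 probe rules, slide and replicate blocks, a trend, array weights and leaving out each array.

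Members and lists were chosen with earlier results of these data known. Named were called members, with values on every array, and the core subunits whether called or not, Hoxa9 and Cdkn2a, up to 3 called genes per direction of the other lists, and defining markers of the marker lists. The values of 1 gene called in the other lists are not reported here. In smooth muscle, endothelial and blood marker lists, 1 was higher and 1 lower of 4, and 0 of 3 and 0 of 5 measured were called in limma, with 1 and 0 at an unadjusted p under 0.05.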

Additional observations from a re-analysis of the deposited data

Results flagged for a closer look

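Among 74 groups of 4 arrays examined, 2 held an array far from the other 3, and chance gives such a gap in about 1 in 20 groups. For Cbx6, eGFP replicate 4 was at 3.06, below the other eGFP arrays at 3.28 to 3.32, a gap of 0.85 of the group's range. For Jarid2, Hoxa9-eGFP replicate 3 was at 0.78, below the other Hoxa9-eGFP arrays at 1.05 to 1.10, a gap of 0.857 of the range, and above every eGFP array.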

How the results depend on the processing

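The calls of Ezh1, Jarid2, Ezh2 and Cbx2 were kept under all 20 alternatives, at differences of 1.29 to 1.46, 0.83 to 1.04, -1.88 to -1.57 and -1.32 to -1.05. Suz12 kept its call in 19, Kdm6b in 13 and Men1 in 6. The count of lower members was 4 as reported, 2 with median scaling, 8 with normexp and 8 with array weights, and 3 to 6 when an array was left out; that of higher members was 2 to 4 throughout. The other Polycomb and Trithorax genes had 2 lower as reported, 1 with median scaling, 5 with normexp, 5 with an intensity trend, and 1 to 3 when an array was left out. The replicate block gave 3 higher and 4 lower members, and it changed no call of a member besides Men1 and Kdm2b. The cause of these changes was not tested.

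Signs turned for 12 members, each uncalled as reported and with the sign turned, except the dimmer Cbx7 probe at 1.36. Phf1 was -0.00221 with quantile scaling, -0.0271 with median scaling and -0.0410 with array weights, and -0.12 to 0.20 when an array was left out. Aebp2 was -0.0388 by its other probe, -0.0619 with the slide block and -0.16 to 0.20 when an array was left out. Cbx7 was 0.45 as the mean of its probes and 1.36 by the dimmer probe. Bmi1 was 0.0529 with normexp. Pcgf5 was 0.0484 with quantile scaling, 0.0496 with normexp, 0.00297 with array weights and -0.0525 to 0.0672 when an array was left out. Phc1 was 0.0494 and Phc3 0.21 as the mean of probes, and 0.53 and 0.73 by a dimmer probe. Yaf2 was 0.0760 with quantile scaling, 0.0815 with normexp, 0.0557 with array weights and -0.12 to 0.14 when an array was left out. Leaving out an array gave -0.0233 to 0.396 for Pcgf1, -0.268 to 0.0539 for Scmh1, -0.0610 to 0.144 for Kdm6a and -0.0055 to 0.24 for Rbbp5. The cause was not tested.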
